A study of Mus musculus with 75 samples.

Results

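The genes described here are the NF-kB subunit genes Nfkb1, Rela, Nfkb2 and Relb and the feedback inhibitors and modulators Nfkbia, Nfkbie, Nfkbiz, Bcl3, Tnfaip3 and Tnip3, 10 genes picked by name from the 41388 mouse gene IDs in each of 2 tables of read counts. All 10 had a row in both tables and passed the filter on low counts over the libraries of each experiment, which left 15110 genes in experiment 1 and 17511 in experiment 2. NF-kB dimers rest in the cytoplasm, bound by inhibitor of kappa B proteins, until a kinase complex downstream of receptors such as the interleukin 1 (IL-1) receptor marks the inhibitors for destruction. The freed dimers enter the nucleus and switch on genes of inflammation and survival, among them the genes of their own inhibitors, so that the signal ends itself. In blood progenitors the pathway is known for its part in emergency myeloid output and in the answer of stem cells to inflammation.

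The 75 libraries hold total RNA of blood cell populations from 8-week-old mice. Experiment 1 has 48 untreated libraries, 4 each of Kmt2c f/f with Vav-Cre (ko), Kmt2c f/+ with Vav-Cre (het) and wild type (wt) in 4 populations. These are HSC (stem cells), HPC, pGM and GMP (granulocyte-monocyte progenitors), by their labels. Experiment 2 has 27 libraries of HSC and HPC from ko and wt mice that were given IL-1 (0.5 µg per mouse for 3 days) or PBS, with 4 libraries per HSC group, except 3 in HSC wt IL1, and 3 per HPC group. Kmt2c encodes a histone methyltransferase, f is its floxed allele, and Vav-Cre expresses Cre recombinase under the Vav promoter, which acts in blood cells. No wt library has a Vav-Cre label, so in ko against wt the loss of Kmt2c and the presence of Cre cannot be told apart. The labels do not say whether replicates are separate animals; p-values here stand for differences beyond the spread of libraries, which may be technical.

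Depth ran from 13.3 M to 20.8 M counts per library in experiment 1 and from 18.6 M to 42.8 M in experiment 2. Levels are given as CPM (counts scaled to a common library total) after TMM scaling over the libraries of an experiment. Kmt2c was called lower in ko than in wt in each untreated population and in experiment 2 except HSC after IL-1, for instance 16.0 ± 2.11 CPM in ko HSC and 50.9 ± 7.68 CPM in wt HSC (SD, n = 4 each). The source names put 15 libraries of experiment 2 in HSC while their cell type entry reads HPC; the summed HSC markers were 253 to 826 CPM in the HPC libraries and 1370 to 2190 CPM in these 15, and the source names were followed. The library labelled HSC wt IL1 replicate 1 stood apart, with 14 CPM of Kmt2c against 41.6 and 42.6 CPM in the others of its group, and results on wt HSC after IL-1 were repeated without it. Its Kmt2c level is near that of untreated ko HSC, and whether its label is right was not tested. The main results and the shares of all genes keep this library as wt. Replicate 4 of each untreated HSC, HPC and pGM group held 685 to 2690 CPM of 7 neutrophil markers, against 8.15 to 130 CPM in the other libraries of these populations, so the untreated comparisons were repeated without all replicate 4 libraries. The summed level of 7 HSC markers was 20 to 24.6 CPM in wt GMP and 2260 to 2820 CPM in wt HSC. That of 8 GMP and promyelocyte markers was 141000 to 172000 CPM in wt GMP and 963 to 2290 CPM in wt HSC. That of 5 markers of lymphoid-primed progenitors was 2080 to 2900 CPM in wt HPC and 49.2 to 57.0 CPM in wt HSC. Among untreated ko libraries, replicates 1 and 4 of each population held at most 0.73 CPM of Y-linked genes and ko replicates 2 and 3 at least 132 CPM, while every wt and het library held at least 59 CPM. Sex is therefore partly mixed with genotype.

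Of the 10 genes, 7 have a promoter in the RefSeq table (GRCm38.p6). The decamer that NF-kB dimers bind, searched as the kappaB consensus on both strands between 250 bases before and 50 after the start site, was present in Nfkbia, Nfkbie, Bcl3, Tnip3, each of the 3 starts of Nfkb2 and 1 of the 2 starts of Tnfaip3, and not in the single window of Rela. The same motif occurs in windows of this length at 8.46% of all 32851 promoters and in 9.55% of 27025 genes. These sequences are shown because Nfkbia, Nfkbie, Tnip3 and Nfkb2 are genes with a call between populations below. Rela is shown as a subunit gene with no edgeR call, though DESeq2 called it in GMP against HSC. The choice leaves out Bcl3, which has a match and calls, and Tnfaip3, which has matches at -125 and -12 and no edgeR call. Nfkb1, Relb and Nfkbiz are the genes without a RefSeq promoter here. Whether a match goes with a call was not tested. Each line gives the 250 bases before the start site, 5′ to 3′ on the gene's strand, with consensus matches in capitals. They lie at chr12:55492648-55492897 (minus strand), chr17:45555450-45555699 (plus), chr6:65590148-65590397 (plus), chr19:46304487-46304736 (plus) and chr19:5637291-5637540 (plus).
Nfkbia: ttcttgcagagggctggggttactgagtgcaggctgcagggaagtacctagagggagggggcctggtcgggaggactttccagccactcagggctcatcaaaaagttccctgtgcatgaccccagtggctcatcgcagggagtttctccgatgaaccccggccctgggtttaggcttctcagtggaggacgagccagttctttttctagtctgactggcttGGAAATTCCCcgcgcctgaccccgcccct
Nfkbie: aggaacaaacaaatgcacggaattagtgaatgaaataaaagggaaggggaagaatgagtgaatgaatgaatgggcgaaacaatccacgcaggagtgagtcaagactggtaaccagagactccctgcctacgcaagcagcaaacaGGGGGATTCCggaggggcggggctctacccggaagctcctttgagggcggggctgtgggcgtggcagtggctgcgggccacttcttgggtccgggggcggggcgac
Tnip3: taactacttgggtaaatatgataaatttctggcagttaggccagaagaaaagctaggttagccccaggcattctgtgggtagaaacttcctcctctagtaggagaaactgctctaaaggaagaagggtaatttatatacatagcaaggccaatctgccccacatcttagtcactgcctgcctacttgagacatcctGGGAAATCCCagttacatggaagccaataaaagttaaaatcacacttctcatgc
Nfkb2: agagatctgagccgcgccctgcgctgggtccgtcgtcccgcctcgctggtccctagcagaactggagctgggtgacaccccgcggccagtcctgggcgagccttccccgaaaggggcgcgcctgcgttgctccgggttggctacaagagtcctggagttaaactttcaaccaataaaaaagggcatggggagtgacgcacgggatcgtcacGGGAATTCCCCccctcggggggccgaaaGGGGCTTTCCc
Rela: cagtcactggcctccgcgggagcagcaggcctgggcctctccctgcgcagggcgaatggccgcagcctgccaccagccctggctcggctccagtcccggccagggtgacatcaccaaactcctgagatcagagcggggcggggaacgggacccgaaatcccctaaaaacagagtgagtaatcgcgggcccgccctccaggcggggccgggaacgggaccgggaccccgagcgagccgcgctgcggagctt

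The match in Nfkbia begins at position -29 relative to the start site and the one in Tnip3 at -54. The Tnip3 window lies inside the gene span chr6:65525313-65634040 given below, which begins upstream of it. A start at the first base of that span was not searched. The run of capitals in Nfkb2 at -39 and -38 is 2 overlapping matches, and a further match begins at -11. In Bcl3 the match GGGAAGTCCC begins at position 3 after the start. A match is a run of letters and says nothing of binding in these cells.

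Compared per kilobase of exon, Nfkbia had the highest level of the 10 in wt HSC, with 109 ± 10.9 CPM per kb (SD, n = 4). The length is that of all annotated exons of a gene, 1610 bases for Nfkbia and 12061 for Nfkb1. It can exceed the length of the transcripts made, so the order depends on it. Nfkbia encodes the classical inhibitor that is rebuilt within one round of signalling. Rela, the transactivating subunit p65, followed with 66.2 ± 6.95 CPM per kb. In CPM without the length, Rela had 203 ± 21.3 and Nfkbia 175 ± 17.5, and their libraries overlapped. Nfkb1, which encodes p105 and p50, had 12.3 ± 0.878, Nfkbie 9.62 ± 2.62 and Tnip3 7.97 ± 0.995 CPM per kb, and neighbours among these 3 overlapped between libraries. The other 5 genes, Nfkb2, Nfkbiz, Bcl3, Relb and Tnfaip3, lay between 2.22 and 0.814 CPM per kb on average, each overlapping its neighbour in the order. In wt GMP the order differed: Rela with 49.1 ± 6.76 CPM per kb and Nfkbia with 44.8 ± 1.34 overlapped at the top, Nfkb1 was next with 12.9 ± 1.36, and Nfkbiz, Relb and Tnip3 were last, between 0.102 and 0.0556 CPM per kb.

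Along the populations from HSC to GMP the wt libraries showed falling levels of most inhibitor genes and of the subunit genes Nfkb2 and Relb, while edgeR made no call for Nfkb1, Rela or Tnfaip3 in any pair of populations. A gene was called in an edgeR quasi-likelihood test at a Benjamini-Hochberg adjusted p under 0.05 over all genes. In GMP against HSC 7 of the 10 genes were lower and 0 higher, where 33.7% of all genes tested were lower. In pGM against HSC 6 were lower, against 20.7% of all genes, and in HPC against HSC 1 was lower, against 10.2%. The counts of lower genes were 7 in GMP against HPC (27% of all genes), 3 in pGM against HPC (6.36%) and 4 in GMP against pGM (18%). The median log2 change of the 10 genes was -1.13 in GMP against HSC and -0.85 in pGM against HSC, where the medians of all genes were -0.16 and -0.02. In these bulk libraries fewer cells of a type and less RNA per cell cannot be told apart. Without all replicate 4 libraries, 3 genes rather than 6 were called in pGM against HSC, and without GMP wt 2 the count in GMP against pGM was 2. DESeq2 made 9 calls in GMP against HSC, adding Rela (adjusted p = 0.0308) and Tnfaip3 (adjusted p = 0.0321). Its share of calls over all genes is not given here, so that count is not read as a result.

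**Figure D1:**
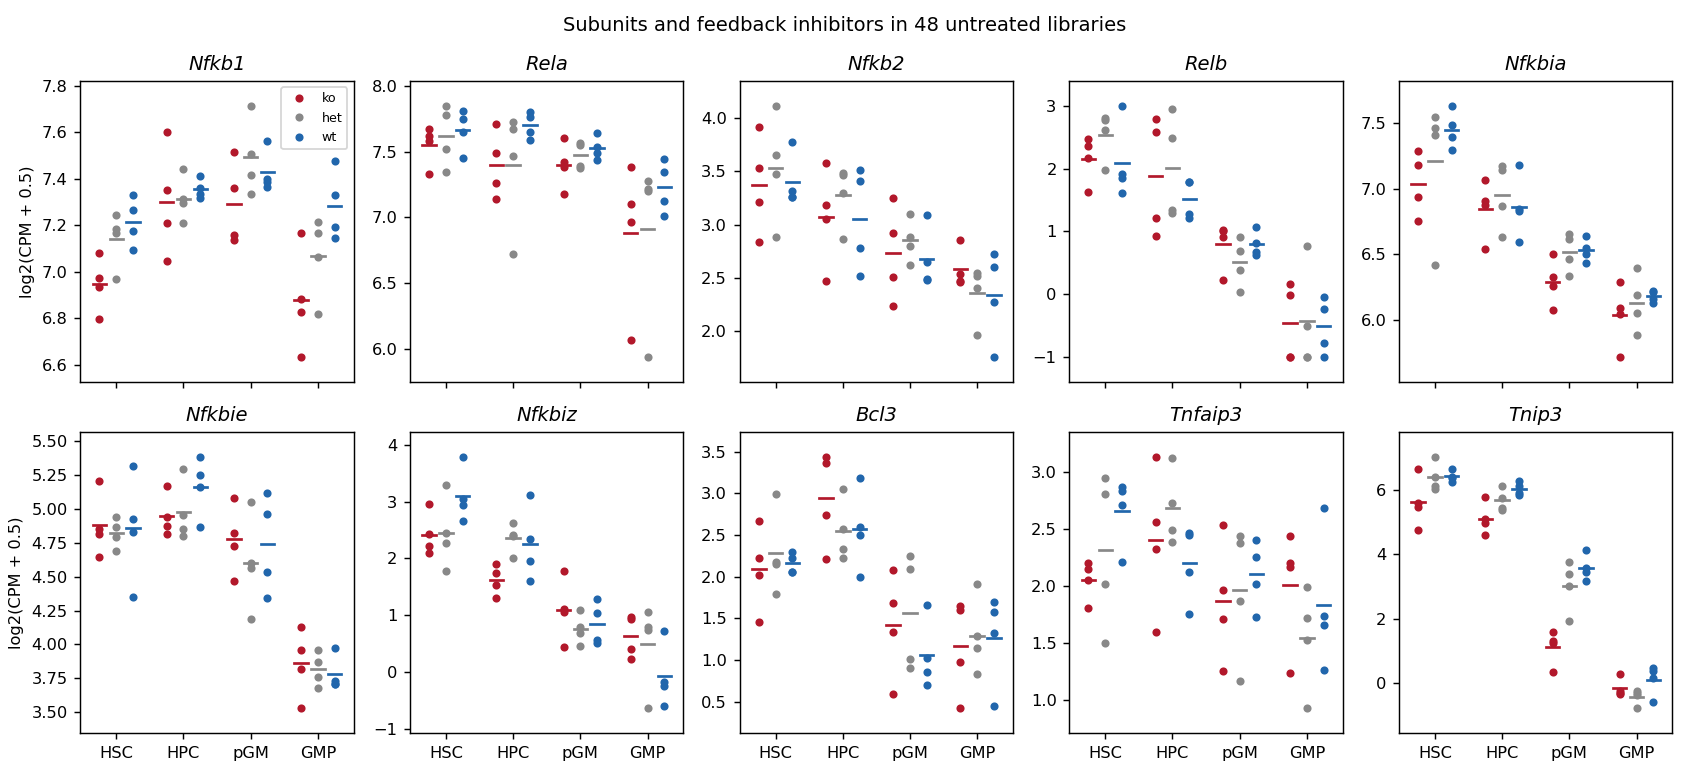
Level of each gene as log2(CPM + 0.5) in the 48 untreated libraries, by population from HSC to GMP; each panel has its own axis range, points are libraries, short lines group means, red ko, grey het and blue wt (4 libraries each). Tnip3, Nfkbiz, Relb and Nfkbia step down from HSC to GMP, and in pGM the 4 ko points of Tnip3 lie below all wt points.

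Tnip3 (ENSMUSG00000044162, chr6:65525313-65634040, plus strand; gene coordinates here are those of GENCODE M21 on GRCm38) encodes a partner of the protein A20 and restrains NF-kB signalling. It had the lowest log2 change of the 10 in wt GMP against HSC. Its level in wt libraries was 83.6, 102, 85.7 and 76.6 CPM in HSC, 70.1, 77.2, 58.0 and 60.6 CPM in HPC, 11.4, 17.2, 10.4 and 8.61 CPM in pGM, and 0.165, 0.80, 0.601 and 0.861 CPM in GMP, the last resting on 2, 10, 7 and 11 reads. HSC and HPC libraries overlapped narrowly, and pGM and GMP each lay below every library of the population before. The log2 change was -7.14 ± 0.46 in GMP against HSC (SE, adjusted p = 1.83e-17) and -2.87 ± 0.34 in pGM against HSC (adjusted p = 5.44e-09).

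Nfkbia (ENSMUSG00000021025, chr12:55489410-55492647, minus strand) had 198, 179, 157 and 168 CPM in wt HSC, 113, 115, 96.3 and 145 CPM in HPC, 99.0, 93.3, 90.0 and 85.9 CPM in pGM, and 73.6, 74.0, 71.1 and 69.5 CPM in GMP. It was the only one of the 10 called between HPC and HSC, with no overlap between their libraries and a log2 change of -0.58 ± 0.17 (adjusted p = 0.00825), called in all 14 alternatives. In PBS-treated wt libraries of experiment 2, which are other libraries, Nfkbia had 103, 84.7 and 95.2 CPM in HPC and 151, 147, 171 and 158 CPM in HSC. Again the groups did not overlap, and the log2 change was -0.73 ± 0.19 (adjusted p = 0.00873), 1 of 10 genes called lower where 7.36% of all genes were. Without HPC wt PBS replicate 2 the adjusted p of that second comparison is 0.0652.

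Nfkbiz (ENSMUSG00000035356, chr16:55811375-55838899, minus strand) encodes an atypical nuclear member of the inhibitor family that works as a co-regulator of NF-kB targets. Its wt levels were 5.82, 7.76, 7.16 and 13.2 CPM in HSC, 4.55, 2.54, 3.38 and 8.17 CPM in HPC, 1.95, 1.55, 0.973 and 0.92 CPM in pGM and 1.15, 0.16, 0.344 and 0.392 CPM in GMP, the last resting on 2 to 14 reads. HSC and HPC overlapped, whereas all pGM and GMP libraries were lower than both. The log2 change was -4.04 ± 0.51 in GMP against HSC (adjusted p = 6.11e-09) and -2.65 ± 0.46 in pGM against HSC (adjusted p = 9.08e-06). The step from pGM to GMP, -1.38 ± 0.51 (adjusted p = 0.037), lost its call in 7 of 14 alternatives, and that from HPC to pGM, -1.78 ± 0.45 (adjusted p = 0.00577), lost it without HPC wt 4 (0.0571) and without all replicate 4 libraries (0.194).

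Nfkbie (ENSMUSG00000023947, chr17:45555703-45563169, plus strand), which encodes the inhibitor of kappa B epsilon, was called lower in GMP against each earlier population and in no other pair. It had 28.0, 29.9, 39.3 and 19.9 CPM in wt HSC, 28.7, 35.3, 41.2 and 37.5 CPM in HPC, 34.2, 30.7, 22.7 and 19.8 CPM in pGM, and 12.8, 12.6, 12.5 and 15.2 CPM in GMP. The GMP libraries lay below all others, and the log2 change was -1.14 ± 0.19 against HSC (adjusted p = 1.78e-06) and -1.02 ± 0.19 against pGM (adjusted p = 4.54e-05).

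The subunit genes of the alternative pathway, Nfkb2 (ENSMUSG00000025225, chr19:46304320-46312385, plus strand; p100 and p52) and Relb (ENSMUSG00000002983, chr7:19606217-19629438, minus strand), were low and were called lower still in GMP. Relb had 7.47, 3.08, 2.54 and 3.26 CPM in wt HSC, 1.81, 2.95, 1.92 and 2.93 CPM in HPC, 1.60, 1.09, 1.03 and 1.25 CPM in pGM, and 0.0824, 0, 0.344 and 0.47 CPM in GMP, which were 1, 0, 4 and 6 reads. GMP lay below pGM and pGM below HPC in every library, and GMP against HSC gave -4.15 ± 0.78 (adjusted p = 1.39e-05). Nfkb2 had 13.2, 9.08, 9.43 and 9.07 CPM in wt HSC, 5.22, 6.37, 10.1 and 10.9 CPM in HPC, 8.02, 5.76, 5.09 and 5.13 CPM in pGM and 2.88, 4.32, 5.58 and 6.11 CPM in GMP. Its GMP libraries were all below its HSC libraries (log2 change -1.11 ± 0.29, adjusted p = 0.000934). Nfkb2 overlaps the gene Psd on the other strand, and no source used here gives the strandedness of the counting, so reads of the overlap cannot be assigned. Psd had 14.6 counts per library on average in experiment 1. The calls of Nfkb2 and Relb in pGM against HSC (log2 changes -0.77 and -1.72, adjusted p = 0.0258 and 0.028) each ended when HSC wt 1, pGM wt 2, pGM wt 3, pGM wt 4 or all replicate 4 libraries were left out, with adjusted p up to 0.104 for Nfkb2 and 0.143 for Relb.

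Bcl3 (ENSMUSG00000053175, chr7:19808462-19822770, minus strand), which encodes a nuclear partner of p50 and p52 dimers, had 4.41, 4.17, 3.66 and 3.67 CPM in wt HSC, 5.56, 3.48, 8.57 and 5.18 CPM in HPC, 1.53, 2.65, 1.32 and 1.12 CPM in pGM and 2.47, 2.00, 0.859 and 2.74 CPM in GMP. All pGM and GMP libraries were lower than all HSC and HPC libraries. The overlapping antisense gene Gm16174 had 8.44 counts per library on average, beside 17 to 46 counts of Bcl3 in wt pGM, and reads of that overlap cannot be assigned either. The log2 change was -1.78 ± 0.43 in pGM against HPC (adjusted p = 0.00353). In pGM against HSC it was -1.26 ± 0.43 (adjusted p = 0.0154, or 0.0576 without pGM wt 4 and 0.0755 without all replicate 4 libraries), and the call in GMP against HSC (-0.97 ± 0.43, adjusted p = 0.0447) was lost in 8 of 14 alternatives.

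The canonical subunit genes and Tnfaip3 gave no call in edgeR. Nfkb1 (ENSMUSG00000028163, chr3:135584655-135691547, minus strand) had 146, 177, 141 and 160 CPM in wt GMP and 153, 144, 136 and 160 CPM in wt HSC, with overlap throughout and a log2 change of 0.07 ± 0.12 in GMP against HSC (adjusted p = 0.607). Rela (ENSMUSG00000024927, chr19:5637483-5648130, plus strand) had 128, 174, 139 and 162 CPM in wt GMP and 175, 224, 214 and 200 CPM in wt HSC, where each GMP library was lower than each HSC library (log2 change -0.43 ± 0.21) and the test missed the threshold with an adjusted p of 0.0667. Tnfaip3 (ENSMUSG00000019850, chr10:19000910-19015657, minus strand), which encodes the ubiquitin-editing brake A20, had 1.90, 5.92, 2.83 and 2.66 CPM in wt GMP and 6.01, 4.11, 6.78 and 6.62 CPM in wt HSC, overlapping through GMP wt 2, with a change of -0.82 ± 0.38 (adjusted p = 0.0572). In wt HPC and pGM, Nfkb1 lay between 159 and 189 CPM, Rela between 173 and 223 CPM and Tnfaip3 between 2.82 and 5.02 CPM. A p that misses the threshold does not show that these levels were equal.

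Other genes of the pathway were counted as lists, to be read against the 27.5% of all genes called higher and 33.7% called lower in GMP against HSC. All lists were chosen with earlier results of these data known, so a count above its share is not taken as a result for a list. Of 3 further subunit and inhibitor genes in GMP against HSC, Nfkbib was higher (1.15 ± 0.20, adjusted p = 3.49e-06), and Rel and Nfkbid were not called. Of 9 tested genes of the IKK and alternative kinase arm, 2 were higher, Ikbkb and Traf2, and 2 lower, Birc2 and Map3k14, the kinase that starts the alternative pathway (-1.47 ± 0.45, adjusted p = 0.00476). Of 18 IL-1 receptor signalling genes, 2 were higher and 7 lower, led by the ubiquitin ligase gene Peli1 (-1.97 ± 0.27, adjusted p = 4.36e-08). Of 13 genes of ubiquitin editing and other brakes, 3 were higher and 4 lower, led by Otud7b (-1.61 ± 0.20, adjusted p = 4.57e-09). Of 23 tested target genes, 8 were higher and 9 lower, with Cd69 and Gadd45b high in GMP and Traf1 low (-5.81 ± 0.43, adjusted p = 1.82e-15). Of 9 tested immediate early genes 0 were higher and 5 were lower, among them Egr1, Zfp36, Dusp1 and Nr4a1. The median log2 change was -1.64 for the immediate early list and -0.16 for the target list, against -0.16 for all genes.

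The genes whose pattern was most like each member over the 48 untreated libraries were found by Pearson's r of log2 CPM among 12653 protein-coding genes. Tnip3 was most like Camk2d (r = 0.974), Card19 (0.971) and Ly6a (0.969), Relb like Lmo2 (0.92), Nfkbie like Tspan13 (0.919), Rela like Rab11b (0.915) and Nfkbiz like Cbx7 (0.878). Nfkb2 was most like Psd (0.833), the gene it overlaps. The best values of Bcl3, Nfkb1 and Tnfaip3 were 0.797, 0.75 and 0.656. Among the members the highest was Relb with Tnip3, 0.866 over all libraries and 0.201 within groups. The libraries share 4 populations and 3 genotypes, so these are descriptions of levels across them.

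Tnip3 was lower in Kmt2c ko pGM, and no other of the 10 genes was called in ko against wt in any population. In untreated ko against wt 1 of 10 genes was called lower in pGM, where 1.53% of all genes were, and 0 were called in HSC (1.78% of all genes in either direction), HPC (1.1%) and, of 8 tested, GMP (0.555%). At an unadjusted p under 0.05 the counts were 3 of 10 in HSC, 2 in HPC, 2 in pGM and 1 of 8 in GMP. Of all genes 1476 of 13806 had such a p in HSC and 1097 of 13276 in HPC. It was 1191 of 12939 in pGM and 1126 of 12082 in GMP. DESeq2 called 0 in HSC, 1 in HPC, 1 in pGM and 0 in GMP. The share of all genes that DESeq2 called is not given here.

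Tnip3 had 1.94, 2.50, 1.87 and 0.756 CPM in ko pGM, 13.1, 9.96, 7.54 and 3.31 CPM in het pGM and 11.4, 17.2, 10.4 and 8.61 CPM in wt pGM. Every ko library was below every het and wt library, and the het and wt libraries overlapped. The log2 change in ko against wt was -2.74 ± 0.40 (adjusted p = 0.000932), a level 6.70 times lower, and it was called in all 14 alternatives, with adjusted p of at most 0.0202 (the covariate of Y-linked expression). In ko against het, which both carry Vav-Cre, the change was -2.26 ± 0.40 (adjusted p = 0.0137). This was 1 of 10 genes, where 0.464% of all genes were lower. Without pGM ko 3 the adjusted p was 0.0516 and with the Y-linked covariate 0.224.

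Marker genes of other cell types differed in the same pGM libraries. The summed level of 4 mast cell and basophil markers was 149 to 227 CPM in ko and 449 to 635 CPM in wt, with 3 of 4 called lower (Cpa3, Mcpt8, Prss34). The remaining marker, Fcer1a, averaged 0.252 CPM in ko and 0.992 CPM in wt. That of 5 lymphoid-primed markers was 955 to 1140 CPM in ko and 1520 to 1850 CPM in wt, with 1 of 5 called lower (Dntt). For 7 HSC markers it was 129 to 329 CPM in ko and 260 to 452 CPM in wt, with 0 of 7 called. For 4 monocyte markers it was 965 to 1450 CPM in ko and 488 to 828 CPM in wt, with 1 of 4 called higher (Csf1r). For 8 macrophage markers it was 34.7 to 53.7 CPM in ko and 57.8 to 63.7 CPM in wt, with 0 of 7 tested called. The part of these shifts in the level of Tnip3 was not tested.

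In the populations where Tnip3 is most abundant the ko libraries were also lower, but the tests did not reach the threshold. Tnip3 had 31.1, 55.3, 34.1 and 23.7 CPM in ko HPC and 70.1, 77.2, 58.0 and 60.6 CPM in wt HPC, without overlap (-0.89 ± 0.23, adjusted p = 0.0876, or 0.0173 without ko replicate 2). It had 44.5, 102, 48.3 and 26.5 CPM in ko HSC and 83.6, 102, 85.7 and 76.6 CPM in wt HSC, where ko replicate 2 lay among the wt libraries (-0.67 ± 0.31, adjusted p = 0.447, or 0.0303 without that library). In both populations the ko library left out was the highest of its group, so no result is drawn from the adjusted p without it. In the same untreated HPC libraries 4 marker sums also parted. HSC markers were 603 to 748 CPM in ko and 811 to 1070 CPM in wt, with 1 of 6 tested called lower (Procr), and stroma and endothelium markers 2.87 to 6.47 CPM in ko and 9.25 to 24.9 CPM in wt, with the 1 of 6 tested called lower (Bgn). GMP and promyelocyte markers were 3510 to 5160 CPM in ko and 2480 to 2980 CPM in wt, with 1 of 8 called higher (Prtn3), and monocyte markers 81.8 to 229 CPM in ko and 47.1 to 69.1 CPM in wt, with 0 of 4 called. Their part in the level of Tnip3 was not tested. HPC het libraries had 69.9, 53.6, 43.5 and 41.8 CPM and HSC het libraries 131, 84.6, 69.3 and 66.2 CPM. In GMP every library of every genotype was at or under 0.861 CPM, and the fit of the GMP libraries alone did not test the gene. The difference between the ko effect in pGM and that in HSC was -2.09 ± 0.48 on the log2 scale (adjusted p = 0.0444). This was 1 of 10 genes, where 0.119% of all genes were called lower, and it lost its call in 14 of 22 alternatives, with adjusted p up to 0.25 without HSC ko 2. For the ko effects in HPC and GMP against that in HSC, 0 genes of the set were called in either test (0.232% and 0.39% of all genes), with 0 and 1 at an unadjusted p under 0.05 and 0 by DESeq2 in both. The unadjusted counts over all genes were 1037 and 1458 of 15110.

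**Figure D2:**
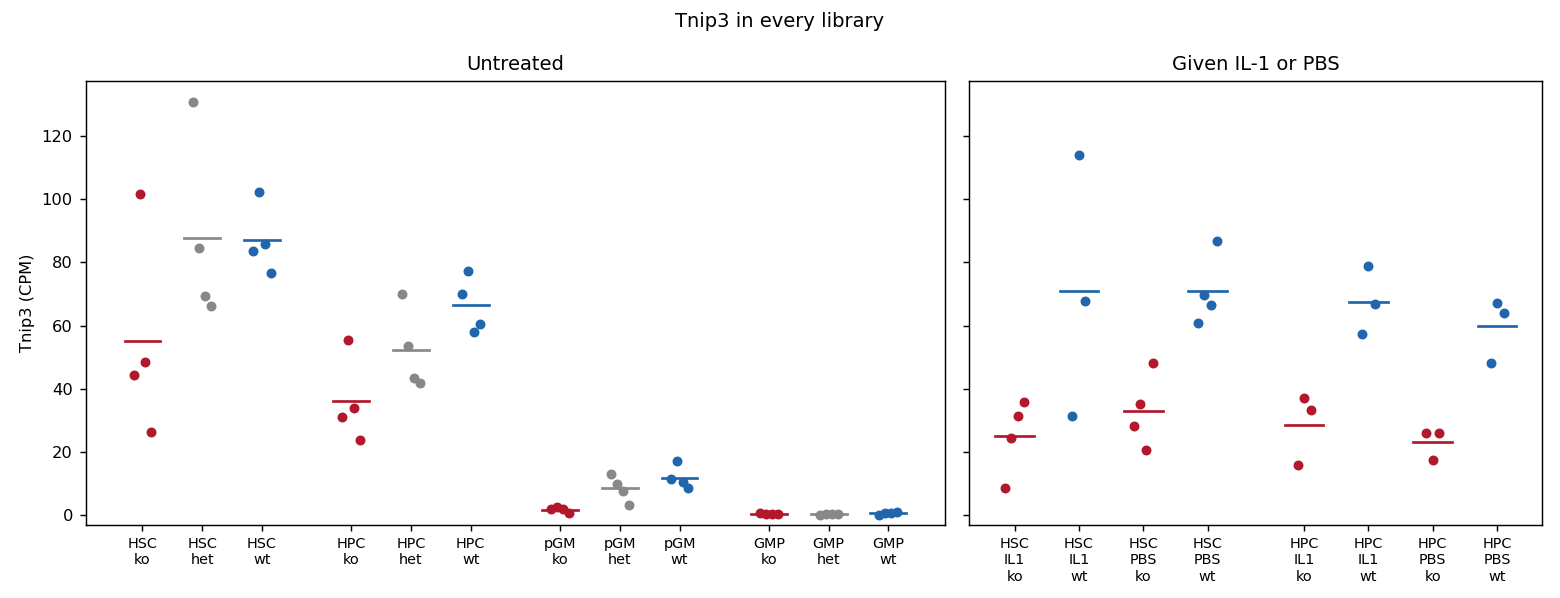
Tnip3 in CPM in each library of experiment 1 (left, untreated) and experiment 2 (right, IL-1 or PBS), ko red, het grey and wt blue; points are libraries and lines group means of 3 or 4 libraries. In pGM ko libraries reach 0.756 to 2.50 CPM and wt libraries 8.61 to 17.2 CPM, and in HPC of both experiments each ko point lies below each wt point.

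Experiment 2 gave 4 further comparisons of ko with wt, made on other libraries. After PBS, Tnip3 had 28.4, 35.1, 20.7 and 48.2 CPM in ko HSC and 60.8, 69.7, 66.6 and 86.8 CPM in wt HSC. It had 26.1, 17.6 and 26.1 CPM in ko HPC and 48.2, 67.0 and 64.1 CPM in wt HPC. After IL-1 it had 15.8, 36.9 and 33.3 CPM in ko HPC and 57.2, 78.8 and 66.7 CPM in wt HPC. These 3 comparisons showed no overlap between the genotypes, with log2 changes of -1.10 ± 0.39, -1.37 ± 0.28 and -1.24 ± 0.28 and adjusted p of 0.292, 0.072 and 0.131. After IL-1 in HSC the values were 8.72, 24.6, 31.3 and 35.9 CPM in ko and 31.3, 114 and 67.7 CPM in wt, overlapping through the library labelled HSC wt IL1 replicate 1. The change was -1.54 ± 0.41 (adjusted p = 0.269) with that library and -1.89 ± 0.40 (adjusted p = 0.0251) without it. In edgeR 0 of the 10 genes were called in these 4 comparisons, where the shares of all genes were 0.798% in HSC and 0.257% in HPC after PBS, and 0% in HSC and 0.201% in HPC after IL-1. At an unadjusted p under 0.05 the counts were 3 and 1 after PBS and 1 and 1 after IL-1. Over all genes they were 1497 of 16538 and 1442 of 15951 after PBS, and 1412 of 16538 and 831 of 15951 after IL-1. DESeq2 called Tnip3 in HPC after PBS (adjusted p = 0.00088), in HPC after IL-1 (0.00495) and in HSC after IL-1 (0.0474), and no gene of the set in HSC after PBS. Here too the share of all genes that DESeq2 called is not given.

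Marker sums parted between the genotypes in these libraries too. In HSC after PBS, macrophage markers were 15.2 to 25 CPM in ko and 52.6 to 68 CPM in wt (Vcam1 and Cd163 of 8 called lower), and stroma and endothelium markers 35.8 to 55.4 CPM in ko and 117 to 136 CPM in wt (Bgn of 6 called lower). Erythroid markers were 99.1 to 362 CPM in ko and 55.1 to 90.1 CPM in wt (Hbb-bt of 3 tested called higher). The sums for GMP and promyelocytes and for T and NK cells were also higher in every ko library, and those for neutrophils and for mast cells and basophils lower, with 0 genes called. In HPC after PBS, ko libraries held 123 to 207 CPM of monocyte markers and wt libraries 54.7 to 77.6 CPM, and ko libraries 1500 to 2060 CPM of GMP and promyelocyte markers and wt libraries 835 to 1390 CPM, while neutrophil markers were 5.56 to 10.2 CPM in ko and 15.1 to 83.5 CPM in wt. In HPC after IL-1, B cell markers were 24.4 to 85.9 CPM in ko and 7.1 to 22.3 CPM in wt, mast cell and basophil markers 19.8 to 29.5 CPM in ko and 38.6 to 150 CPM in wt, and erythroid markers 94.8 to 135 CPM in ko and 139 to 262 CPM in wt. In HPC 0 of these marker genes were called by edgeR in either comparison. In HSC after IL-1 the erythroid sum parted, at 315 to 492 CPM in ko and 499 to 583 CPM in wt. The part of these lists in the level of Tnip3 was not tested.

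Counted by overlap alone, Tnip3 was the only gene of the set with all ko libraries below all wt libraries in untreated pGM and HPC, where 3.7% and 3.91% of all genes tested showed this, and in HSC after PBS (3.69%), HPC after PBS (7.84%) and HPC after IL-1 (5.61%). In untreated HSC 3 genes did, Nfkb1, Nfkbia and Tnfaip3 (3.64% of all genes), in HSC after IL-1 Nfkb1 did (3.99%), with an estimate of -0.24 ± 0.21 (adjusted p = 0.672) when HSC wt IL1 replicate 1 was left out, and in GMP 0 did (3.65%).

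In untreated HSC all 10 genes had negative estimates in ko against wt, from -0.78 for Nfkbiz to -0.01 for Nfkb2, with a median of -0.20 against 0.01 for all genes, and none was called. Nfkbia had 107, 145, 156 and 122 CPM in ko HSC and 198, 179, 157 and 168 CPM in wt HSC. These libraries just failed to overlap, and the log2 change was -0.42 ± 0.20 (adjusted p = 0.498). Tnfaip3 had 4.09, 3.64, 3.93 and 2.99 CPM in ko HSC and 6.01, 4.11, 6.78 and 6.62 CPM in wt HSC (-0.69 ± 0.34, adjusted p = 0.483). Nfkb1 had 111, 122, 125 and 135 CPM in ko HSC and 153, 144, 136 and 160 CPM in wt HSC (-0.28 ± 0.13, adjusted p = 0.427). After PBS Nfkb1 had 106, 131, 111 and 90.4 CPM in ko HSC and 163, 159, 149 and 108 CPM in wt HSC, overlapping through wt replicate 4 (-0.40 ± 0.17, adjusted p = 0.452). Summed markers of macrophages were 10.5 to 23.1 CPM in ko HSC and 26.8 to 62.5 CPM in wt HSC, with C1qb and Cd163 of the 8 called lower. Those of stroma and endothelium were 36.5 to 53.5 CPM in ko and 118 to 175 CPM in wt, with Bgn and Kdr, the 2 of 6 that were tested, called lower. Those of T and NK cells were 14.5 to 21.7 CPM in ko and 12.2 to 13.7 CPM in wt, with the 1 of 5 tested not called. The part of these lists in the values was not tested.

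**Figure D3:**
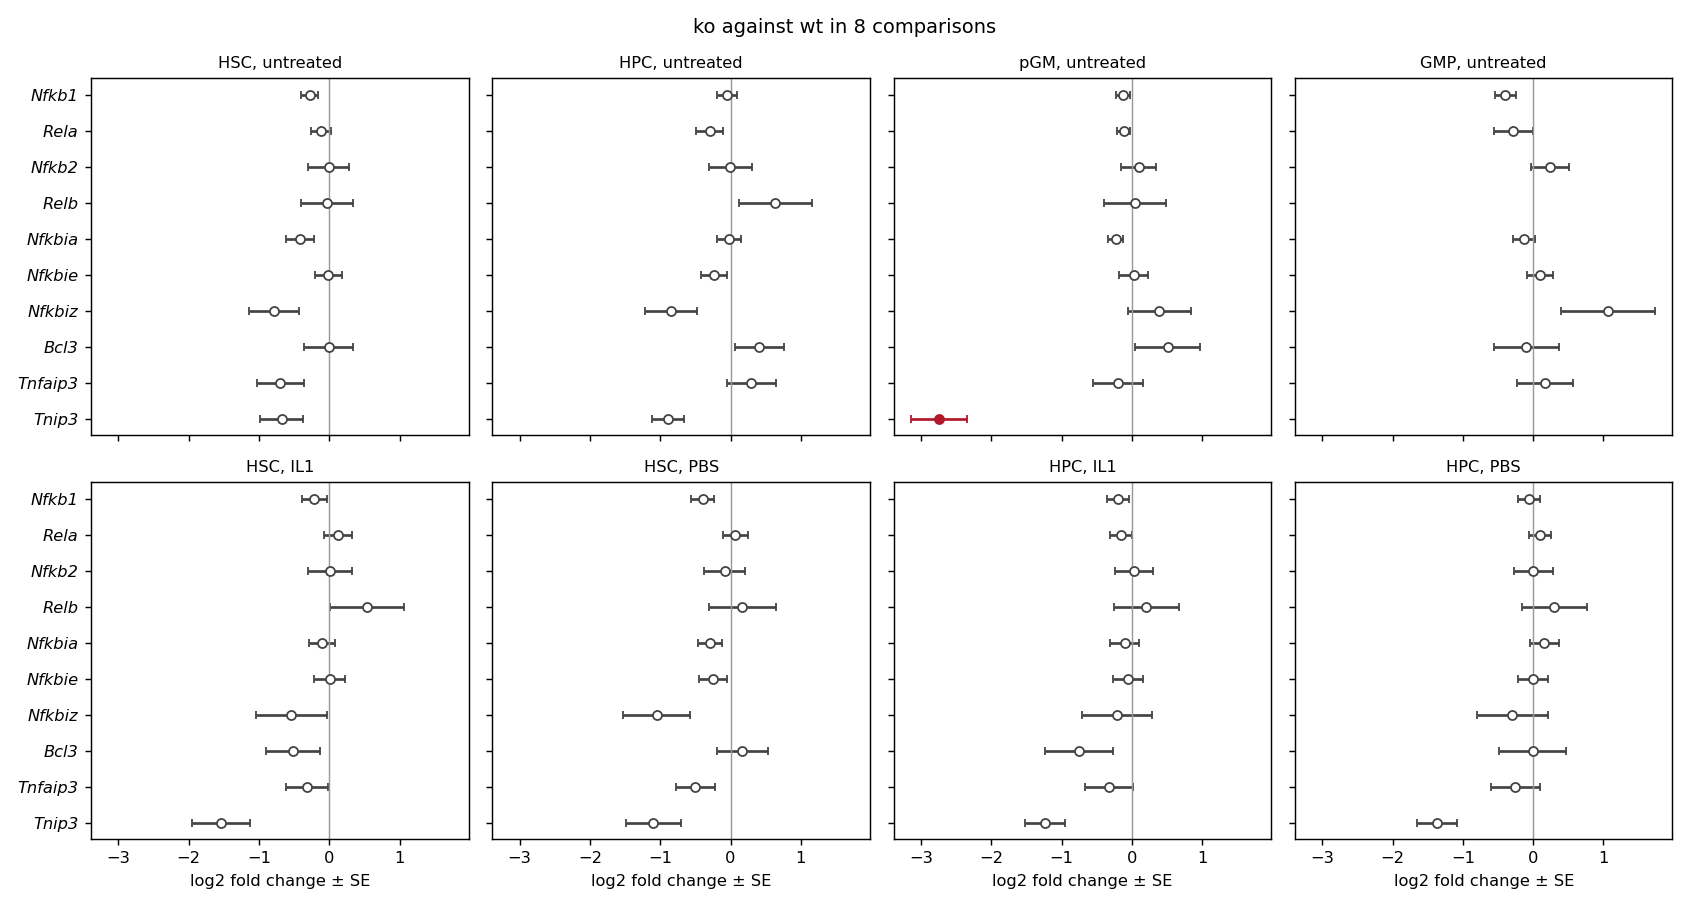
Log2 fold change of ko against wt with its SE for the 10 genes in 8 comparisons, untreated above and treated below; the filled red point is a call at adjusted p under 0.05, open points are not called, and genes not tested have no point. Tnip3 lies left of 0 in all 7 panels that show it, from -0.67 to -2.74, and it is filled in pGM.

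Between ko and het 0 genes of the set were called by edgeR in HSC, HPC and, of 8 tested, GMP, against 0.326%, 0.196% and 0.0166% of all genes, with 1, 2 and 0 at an unadjusted p under 0.05. Such a p was seen for 992 of 13806, 825 of 13276 and 538 of 12082 genes tested. Between het and wt 0 were called in HSC (0.00724% of all genes), HPC (0.00753%), pGM (0.0155%) and GMP (0.00828%), and 0 at an unadjusted p under 0.05 in any of them. There the unadjusted counts over all genes were 758 of 13806, 560 of 13276, 951 of 12939 and 336 of 12082. DESeq2 made 0 calls in these 7 comparisons. Tnip3 in het against wt had log2 changes of -0.49 ± 0.36 in pGM and -0.34 ± 0.23 in HPC. Single libraries stood low for Rela, with 66.7 CPM in GMP ko 2, 60.8 CPM in GMP het 1 and 105 CPM in HPC het 1, whereas untreated wt libraries had no fewer than 128 CPM.

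Among the other lists, Il1r1, the receptor of the agent given in experiment 2, was called lower in untreated ko HSC, HPC and pGM and in no other comparison of ko with wt. In ko against het, which both carry Vav-Cre, Il1r1 was called lower in HPC and pGM and not in HSC or GMP. These were 1 of 17 and 1 of 18 genes of its list, where 0.173% and 0.464% of all genes were lower. Its level was 2.13 ± 0.54 CPM in ko HSC and 7.07 ± 0.154 CPM in wt HSC (log2 change -1.75 ± 0.28, adjusted p = 0.00192). It was 33.3 ± 3.86 CPM in ko HPC and 58.8 ± 6.18 CPM in wt HPC (-0.83 ± 0.16, adjusted p = 0.0139). It was 8.21 ± 1.19 CPM in ko pGM and 26.1 ± 5.84 CPM in wt pGM (-1.66 ± 0.20, adjusted p = 0.000159). These are means ± SD of 4 libraries each, and the changes have SE. Without all replicate 4 libraries the adjusted p of Il1r1 was 0.0511 in HSC, 0.233 in HPC, and in pGM it was at most 0.00455 under every alternative. Of the IL-1 receptor signalling list 1 of 17 tested genes was lower in HSC, 1 of 17 in HPC and 2 of 18 in pGM, where the second was the decoy receptor Il1r2. In GMP and in each of the 4 comparisons of experiment 2 it was 0 of 18. There the log2 change of Il1r1 was -1.74 ± 0.74 in GMP (adjusted p = 0.468). In experiment 2 it lay between -1.10 ± 0.37 in HSC after PBS (adjusted p = 0.243) and -0.70 ± 0.26 in HPC after PBS (adjusted p = 0.445). The highest adjusted p of the 4 was 0.564, in HSC after IL-1, where the level was 7.31 to 11.7 CPM in the ko libraries and 6.29 to 24.6 CPM in the wt libraries, the library labelled HSC wt IL1 replicate 1 included. Of the 19 target genes tested, 2 were lower in HSC (Clec4e and Cd69), 3 in HPC (Clec4e, Cd69 and Nod2) and 2 in pGM (Clec4e and Ccl5), and 0 were higher. Of all genes 1.21% were lower in HSC, 0.851% in HPC and 1.53% in pGM. Since the lists were chosen with earlier results known, counts above these shares are not taken as a result for the list. In GMP 0 of 18 target genes were called, where 0.356% of all genes were lower. The calls of Cd69, Nod2 and Il1r2 were lost without all replicate 4 libraries (adjusted p of 0.0812 to 0.231). Clec4e, a receptor that senses damaged cells and fungi, had 9.77 ± 2.02 CPM in ko pGM and 50 ± 2.49 CPM in wt pGM (-2.35 ± 0.15, adjusted p = 1.38e-07). In ko against het HPC and pGM it was the 1 of 19 target genes called lower (0.173% and 0.464% of all genes). In experiment 2 it was called lower in ko against wt HSC after PBS, with Vcam1, 2 of 25 tested (0.562% of all genes). In HPC after PBS and after IL-1 it was 1 of 25 (0.169% and 0.15%). Of the immediate early list Nr4a1 was higher in untreated ko HSC (1.12 ± 0.27, adjusted p = 0.0359, or 0.152 without all replicate 4 libraries), 1 of 9 tested, where 0.572% of all genes were higher. The further subunit, kinase and ubiquitin lists gave 0 calls in untreated ko against wt in edgeR, with 1 gene at an unadjusted p under 0.05 in HSC, 0 in HPC, 0 in pGM and 2 in GMP. The counts of all genes with such a p are those given above for these comparisons.

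None of the 10 genes was called after 3 days of IL-1. In edgeR 0 of 10 were called in HSC ko (0.212% of all genes), HSC wt (0.2%), HPC ko (0.433%) and HPC wt (0.947%), with 1, 0, 0 and 0 at an unadjusted p under 0.05, and DESeq2 called 0 in each. Over all genes the unadjusted counts were 1454 and 1294 of 16538 in ko and wt HSC, and 1095 and 1610 of 15951 in HPC. The log2 changes of IL-1 against PBS ran from -0.40 to 0.51 in HSC ko, from -0.35 to 0.64 in HSC wt, from -0.55 to 0.31 in HPC ko and from -0.45 to 0.75 in HPC wt, with SE between 0.15 and 0.53.

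Nfkb1 had the smallest unadjusted p of the set in ko HSC. It had 165, 155, 167 and 141 CPM in ko HSC after IL-1 and 106, 131, 111 and 90.4 CPM in ko HSC after PBS, with no overlap and a log2 change of 0.51 ± 0.17 (adjusted p = 0.323). In wt HSC it had 171, 191 and 171 CPM after IL-1 and 163, 159, 149 and 108 CPM after PBS, again without overlap (0.33 ± 0.18, adjusted p = 0.70, or 0.36 ± 0.21 with an adjusted p of 0.67 without replicate 1 of the IL-1 group). Nfkbia, the usual early readout of NF-kB activity, had 130, 173, 124 and 181 CPM in ko HSC after IL-1 and 123, 152, 113 and 123 CPM after PBS. In wt HPC it had 81.0, 96.3 and 92.5 CPM after IL-1 and 103, 84.7 and 95.2 CPM after PBS. Both pairs overlapped. Tnfaip3 had 4.10, 4.24, 4.71 and 4.94 CPM in ko HSC after IL-1 and 3.91, 3.14, 3.18 and 2.65 CPM after PBS, without overlap (0.48 ± 0.28, adjusted p = 0.629). The share of all genes without overlap between IL-1 and PBS was not counted, so no result is drawn from these gaps. Bcl3 had the highest estimate in wt HPC, 0.75 ± 0.48 (adjusted p = 0.68), with 10.2, 3.32 and 4.61 CPM after IL-1 and 2.52, 3.07 and 5.25 CPM after PBS. The groups overlapped, and 1 library after IL-1 stood above the rest.

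**Figure D4:**
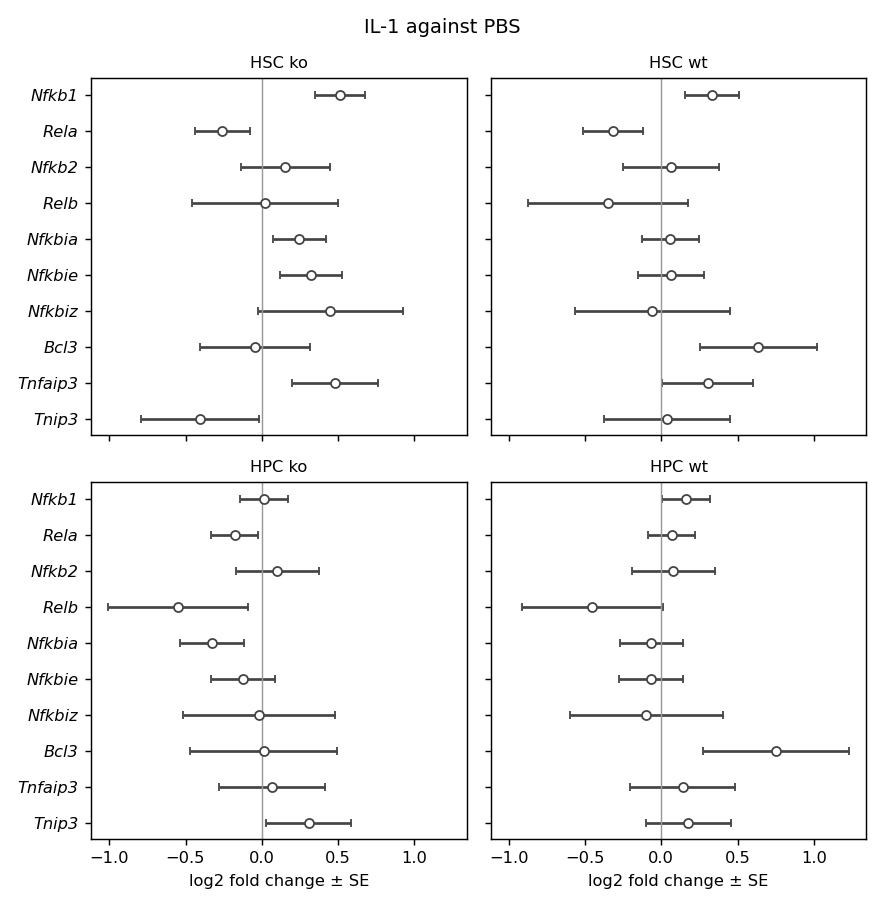
Log2 fold change of IL-1 against PBS with its SE for the 10 genes in ko (left) and wt (right) HSC (above) and HPC (below). All points are open because none was called; the estimates lie between -0.55 and 0.75.

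The response to IL-1 did not differ in a called way between ko and wt or between populations for any gene of the set: 0 of 10 in HSC and in HPC for ko minus wt (0% of all genes in both), and 0 of 10 for HPC minus HSC in wt (0.0228%) and in ko (0%). At an unadjusted p under 0.05 the counts were 0, 0, 0 and 2, and DESeq2 called 0 in each. The unadjusted counts over all genes were 756 of 16538, 352 of 15951, 1011 of 17511 and 888 of 17511. Target genes in the same libraries did change. Of 25 tested, 2 rose in wt HPC, Ccl5 and Bcl2a1d, 2 rose and 1 fell (Clec4e) in ko HPC, 1 rose in ko HSC (Lcn2) and 0 changed in wt HSC. Of all genes 0.702% rose in wt HPC, 0.295% rose and 0.138% fell in ko HPC and 0.145% rose in ko HSC. The target list was chosen with earlier results of these data known. The call of Lcn2 was lost when any 1 of the ko HSC libraries after PBS was left out (adjusted p of 0.0577 to 0.158). The chemokine gene Ccl5 had 125 ± 47.6 CPM in wt HPC after IL-1 and 8.92 ± 1.57 CPM after PBS (log2 change 3.82 ± 0.32, adjusted p = 0.000112). In ko HPC it had 73.4 ± 20 CPM after IL-1 and 12.4 ± 2.98 CPM after PBS (2.58 ± 0.30, adjusted p = 0.00239) (SD, n = 3 each for the levels). Marker sums parted too. T and NK cell markers in wt HPC were 11.3 to 20.7 CPM after IL-1 and 4.58 to 10.8 CPM after PBS. In ko HPC they were 8.34 to 21.5 CPM and 3.9 to 7.62 CPM. HSC markers in wt HPC were 254 to 344 CPM after IL-1 and 511 to 826 CPM after PBS. Erythroid markers in wt HSC were 499 to 583 CPM after IL-1 and 55.1 to 90.1 CPM after PBS. Further lists parted or overlapped and are not given here. The part of these shifts in the levels was not tested. Without replicate 1 of the HSC wt IL-1 group the 10 genes again gave 0 calls for IL-1 against PBS in wt HSC, for ko minus wt in HSC and for HPC minus HSC in wt.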

How the data were processed

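The deposited files are 2 tables of read counts per Ensembl gene ID, 1 for the 48 untreated libraries and 1 for the 27 libraries given IL-1 or PBS. Per the labels' protocols, RNA was extracted with the Qiagen RNeasy micro plus kit and libraries were made with Clontech SMARTer. Per the submitters' processing notes, STAR 3.0.4 and featureCounts 1.4.5 from the Subread package made these deposited counts; no source used here gives the genome build or the strand setting. Genes were named from GENCODE M21 (40340 of 41388 mouse IDs matched), and 3 entries of the untreated table that are not mouse genes were left out.

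Groups follow the source names. Counts were tested with edgeR 4.0.16 in R 4.3.3 (TMM, filterByExpr with a minimum count of 10, robust quasi-likelihood F test, Benjamini-Hochberg over all genes tested). Comparisons within a population used all libraries of that population and experiment, and comparisons across populations used all libraries of the experiment, which gave 8 fits and 34 comparisons. CPM values used the TMM factors of the whole experiment. SE are those of the fitted log2 changes. The alternatives were DESeq2 1.42.0, its size factors in edgeR (RLE), no filter on low counts, a replicate block, a covariate of Y-linked expression, and each library left out in turn; the Y-linked covariate for experiment 2 and the fit without all replicate 4 libraries were chosen after seeing the data. The edgeR, DESeq2 and block fits were tested on simulated data. Numbers shared by libraries were taken as pairs where the deviations of every pair correlated over 0.1: IL-1 against PBS in HPC wt (0.14 to 0.295), in HPC ko (0.13 to 0.234), and ko against wt in HPC after IL-1 (0.25 to 0.495). In untreated wt HPC, pGM and GMP, 3 of 4 libraries each were closest to the HSC library of their number, with correlations from 0.061 to 0.328. The main fits took all libraries as independent, same-numbered ones of different populations included.

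The 10 genes and all lists were chosen with earlier results of these data known. All 10 are described whatever their values; of each list, called genes are named, at most 4 per list and comparison by smallest p, and for each member up to 3 genes of highest correlation. The gene with the pattern most like that of Nfkbia is not reported here.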

Additional observations from a re-analysis of the deposited data

Results flagged for a closer look

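Of 150 sets of libraries, each 1 gene in 1 group of 4, 11 had 1 library far from the other 3 relative to the range of the group; chance flags about 1 in 20 groups. Single libraries stood high for Nfkb1 in pGM wt 1 (189 CPM, the others 164 to 168), Nfkb2 in HSC wt 1 (13.2 CPM, the others 9.07 to 9.43), Relb in HSC wt 1 (7.47 CPM, the others 2.54 to 3.26), Relb in GMP het 1 (1.2 CPM, the others 0 to 0.205), Nfkbie in GMP wt 4 (15.2 CPM, the others 12.5 to 12.8), Tnip3 in GMP ko 1 (0.694 CPM, the others 0.281 to 0.337) and Bcl3 in HSC ko IL1 1 (5.41 CPM, the others 3.73 to 3.93). Libraries stood low for Rela in GMP het 1 (60.8 CPM, the others 147 to 155), Relb in pGM ko 2 (0.67 CPM, the others 1.39 to 1.53), Nfkbia in HSC het 1 (85.3 CPM, the others 170 to 187) and Rela in HSC wt PBS 4 (89.8 CPM, the others 125 to 131).

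The ko against wt change of Tnip3 differed between pGM and HSC by -2.09 ± 0.48 on the log2 scale (edgeR, adjusted p = 0.0444). Its limits are given beside it above, and loss of Kmt2c and presence of Cre cannot be told apart in it.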

How the results depend on the processing

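The call of Tnip3 in ko against wt pGM and that of Nfkbia in wt HPC against HSC held under all 14 alternatives each. Where no gene of the set was called in ko against wt, DESeq2 called 1 (Tnip3) in untreated HPC, in HSC after IL-1, in HPC after IL-1 and in HPC after PBS, leaving the filter out called 1 in HPC after IL-1 and 1 in HPC after PBS, and the replicate block called 1 in untreated HPC, 1 in HSC after IL-1 and 1 in HPC after PBS. By the 0.1 rule the numbers were not taken as pairs in the last 3 comparisons. In HPC after PBS the correlations were 0.065 to 0.19, and each ko library was closest to the wt library of its number. In the 3 comparisons where the numbers were taken as pairs, the block changed no call. The Y-linked covariate left 0 calls in ko against het pGM. Leaving the filter out left 0 calls in the difference of ko effects between pGM and HSC, and so did leaving out all replicate 4 libraries, which left 3 calls in wt pGM against HSC; fewer libraries were then fitted. Leaving out single libraries gave 0 to 1 calls in ko against wt HSC (1 without HSC ko 2), in ko against wt HPC (1 without HPC ko 2), in ko against het pGM (0 without pGM ko 3), in the difference of ko effects between pGM and HSC, in HSC ko against wt after IL-1 (1 without HSC wt IL1 1) and in wt HPC against HSC after PBS (0 without HPC wt PBS 2). It gave 1 to 2 calls in wt HPC against HSC (Nfkbiz added without HPC wt 4), 3 to 6 in wt pGM against HSC (3 without pGM wt 4) and 2 to 4 in wt GMP against pGM (2 without GMP wt 2). The causes were not tested.

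Uncalled estimates of Tnip3 changed sign when single libraries were left out. Het against wt in HSC (-0.0047) ranged from -0.2549 to 0.0979 and was above 0 without HSC het 2, 3 or 4 (0.0022, 0.0955, 0.0979), HSC wt 2 (0.0707) or all replicate 4 libraries (0.0411). The difference of ko effects between HPC and HSC (-0.2256) ranged from -0.5096 to 0.2478, its highest value without HSC ko 2. That between GMP and HSC (0.0756) ranged from -0.3098 to 0.5489 and was below 0 without GMP ko 1 (-0.3098), GMP wt 1 (-0.2244), HSC ko 1 (-0.0144), HSC ko 4 (-0.1556) or HSC wt 2 (-0.0104). RLE scaling moved the median of all genes by at most 0.094 on the log2 scale, downward in wt pGM against HSC (-0.094). Low counts limit Relb, Tnip3 and Nfkbiz in GMP, where the wt libraries held 0 to 6 reads of Relb, 2 to 11 of Tnip3 and 2 to 14 of Nfkbiz.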
